A study of Mus musculus with 4 samples.

Results

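The genes described here were expressed in control 2-cell mouse embryos and were near or at 0 in embryos cultured with dimethyl sulfoxide (DMSO). A gene was taken when its abundance was at least 4 TPM in both control libraries and under 1 TPM in both DMSO libraries. TPM is a measure of abundance that scales the reads of a gene by transcript length and by the total of the library, so levels can be compared between genes. Of 7235 genes at 4 TPM or more in both control libraries, 26 were under 1 TPM in both DMSO libraries (0.359%). Symbols of the numbered Zfp zinc finger genes and of the histone, ribosomal protein and Prame families were left out, which removed Zfp930 (8.26 and 5.86 TPM in the control libraries, listed at 0 in both DMSO libraries). There remained 25 genes of 30049 in the table. The genes were thus chosen by the control and DMSO values themselves, so these are given as a description without a test.

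Embryos were wild type and came from matings of BDF1 mice (strain BDF1*BDF1 F2). Zygotes collected 18 h after injection of human chorionic gonadotropin were cultured in KSOM, a medium for preimplantation embryos, for 24 h without DMSO (control) or with 2% DMSO, and 50 embryos at the 2-cell stage were collected for each group. Total RNA was amplified as cDNA and sequenced as 2 control and 2 DMSO libraries. Whether the libraries of a group came from separate cultures is not stated, so a p-value measures only the spread between these samples. TPM values keep no depth, and the depth of each library is not known here. In RNA of pooled embryos, fewer embryos holding a transcript and less of it in each embryo cannot be told apart.

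At the 2-cell stage the mouse embryo destroys RNA stored in the egg and begins to transcribe its own genome. DMSO is a polar solvent used to dissolve compounds and to protect embryos during freezing. A processed pseudogene is a copy of a messenger RNA that was written back into the genome, so its sequence can be the same as part of the parent gene's transcript.

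By annotation on GRCm38, 22 of the 25 genes (88.0%) were protein-coding and 3 (12.0%) were processed pseudogenes. Among the 7182 annotated genes at 4 TPM or more in both control libraries, 93.9% were protein-coding and 3.91% were processed pseudogenes. The 3 pseudogenes held much of the summed TPM of the group. The sum over all 25 genes was 413 TPM in control replicate 1 and 351 TPM in control replicate 2, of which the protein-coding genes gave 157 and 199 TPM. The same sums were 10.4 and 14.2 TPM in DMSO replicates 1 and 2. The word lost describes the group loosely, since 3 genes were listed at 0 in both DMSO libraries and 4 in only 1 of them. The other 18 genes had a value above 0 in both DMSO libraries.

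**Figure D1:**
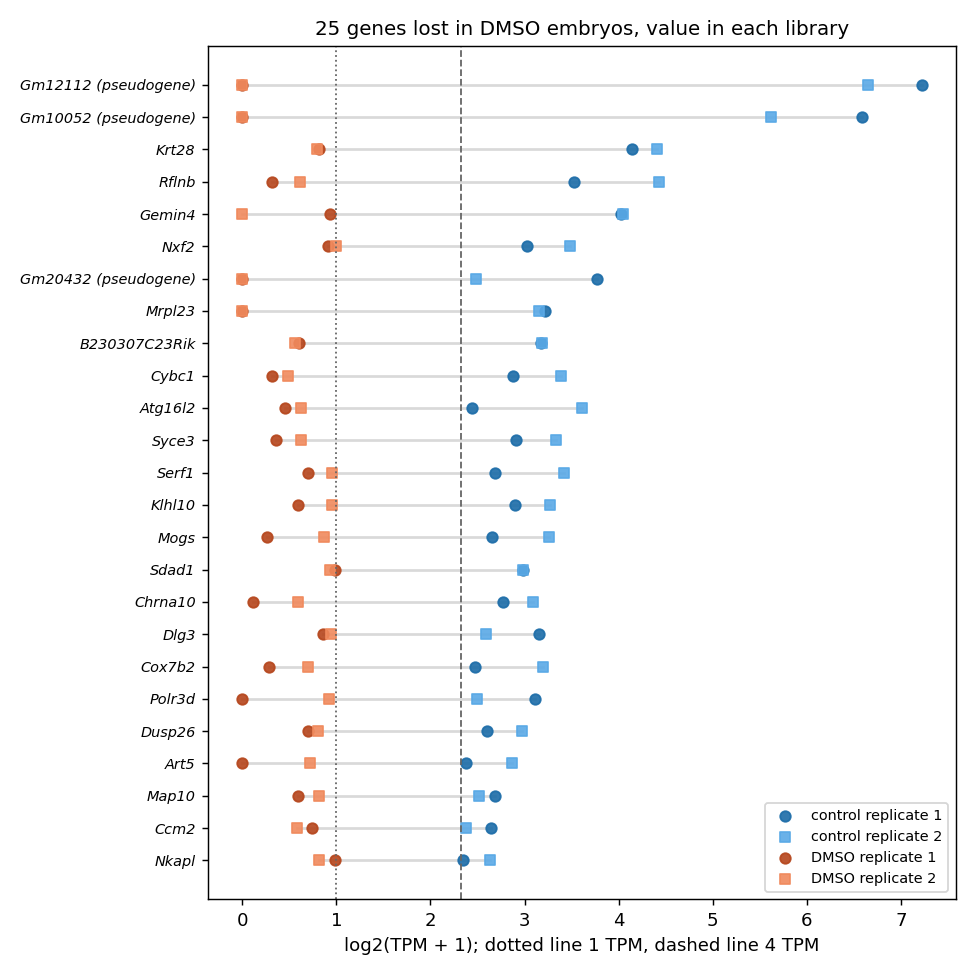
Abundance of each of the 25 genes in the 4 libraries, as log2(TPM + 1), ordered by mean control level. Circles are replicate 1 and squares replicate 2 of control (blue) and DMSO (orange), and the dotted and dashed lines mark 1 and 4 TPM. The pseudogenes Gm12112 and Gm10052 had the highest control levels, and the control and DMSO values do not overlap for any gene because the rule requires it.

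The sequences of the 3 pseudogenes are shown because a read cannot be assigned to them by sequence alone where they equal another transcript. They were read from the GENCODE M21 transcripts, 5′ to 3′. Gm12112 (231 bases) is printed whole, and capitals mark the stop codon of Tcea1, the parent gene, which encodes an RNA polymerase II elongation factor. Of Gm10052 (960 bases), the first 150 bases are printed with the start codon of Hnrnpa1 in capitals, the parent gene that encodes an abundant RNA-binding protein. For Gm20432 (250 bases), capitals mark the 47 bases it shares with Mcl1, an anti-apoptotic gene of the Bcl2 family.
Gm12112: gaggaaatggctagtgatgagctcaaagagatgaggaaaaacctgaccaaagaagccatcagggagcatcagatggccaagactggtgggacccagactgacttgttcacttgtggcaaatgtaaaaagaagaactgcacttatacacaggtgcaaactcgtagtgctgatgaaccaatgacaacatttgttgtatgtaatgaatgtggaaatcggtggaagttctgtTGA
Gm10052: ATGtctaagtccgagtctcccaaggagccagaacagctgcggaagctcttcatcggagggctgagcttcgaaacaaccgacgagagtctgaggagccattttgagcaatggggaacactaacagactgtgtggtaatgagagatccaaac
Gm20432: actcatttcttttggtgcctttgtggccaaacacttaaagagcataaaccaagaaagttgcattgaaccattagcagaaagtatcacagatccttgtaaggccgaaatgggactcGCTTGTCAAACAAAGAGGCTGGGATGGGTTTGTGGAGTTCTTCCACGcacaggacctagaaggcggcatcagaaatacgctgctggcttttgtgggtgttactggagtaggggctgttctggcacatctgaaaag

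Gm12112 (chr11:32910373-32910603, plus strand) had the highest control level of the group. Its values were 148 and 99.4 TPM in control replicates 1 and 2, 0 in DMSO replicate 1 and 1.78e-05 TPM in DMSO replicate 2. The whole pseudogene equals bases 776 to 1006 of a Tcea1 transcript, the last 231 bases of that coding sequence. Every one of its 201 words of 31 bases therefore occurs in Tcea1. The authors' quantifier, kallisto, matches words of reads to transcripts and splits shared reads by an estimate, so the level of such a gene depends on that split. Tcea1 itself had 17.0 and 12.0 TPM in control and 8.75 and 9.18 TPM in DMSO. The log2 fold change, DMSO minus control on the log2(TPM + 1) scale here and throughout, was -0.62 ± 0.31 (SE, n = 2 per group).

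Gm10052 (chr9:123689233-123690192, minus strand) lies inside Ccr9, a chemokine receptor gene on the opposite strand. Its level was 95.1 and 48.3 TPM in control, and it was listed at 0 in both DMSO libraries. Its 960 bases equal bases 61 to 1020 of an Hnrnpa1 transcript, which is that coding sequence without its last 3 bases. Hnrnpa1 was far more abundant, at 508 and 311 TPM in control and 488 and 319 TPM in DMSO. The groups overlap for Hnrnpa1 (log2 fold change -0.01 ± 0.35 SE), and the sign of this difference turned under other scalings. Gm20432 (chr5:25433036-25433285, minus strand) lies within Kmt2c, a histone methyltransferase gene on the same strand. Its values were 12.6 and 4.61 TPM in the control libraries and 0 in both DMSO libraries, and the ratio between its control replicates, 2.73, was the largest in the group. Kmt2c was at 119 and 79.8 TPM in control and 159 and 89.95 TPM in DMSO, so the host gene overlapped between groups. Mcl1 was listed at 0 in all 4 libraries.

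The 22 protein-coding genes were low in control among genes that passed 4 TPM there. Their median control mean was 7.25 TPM, against 24.5 TPM for protein-coding genes at 4 TPM or more in both control libraries. Control values ran from 4.09 to 20.5 TPM and DMSO values from 0 to 0.999 TPM. For the 21 protein-coding genes with a value above 0 in a DMSO library, the ratio of mean control to mean DMSO TPM had a median of 13.7, from 5.35 for Nkapl to 40.1 for Rflnb. Of the 2791 protein-coding genes at 4 TPM or more in both controls and no more abundant there than Krt28, the highest of the 22, 23 (0.824%) were under 1 TPM in both DMSO libraries.

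**Figure D2:**
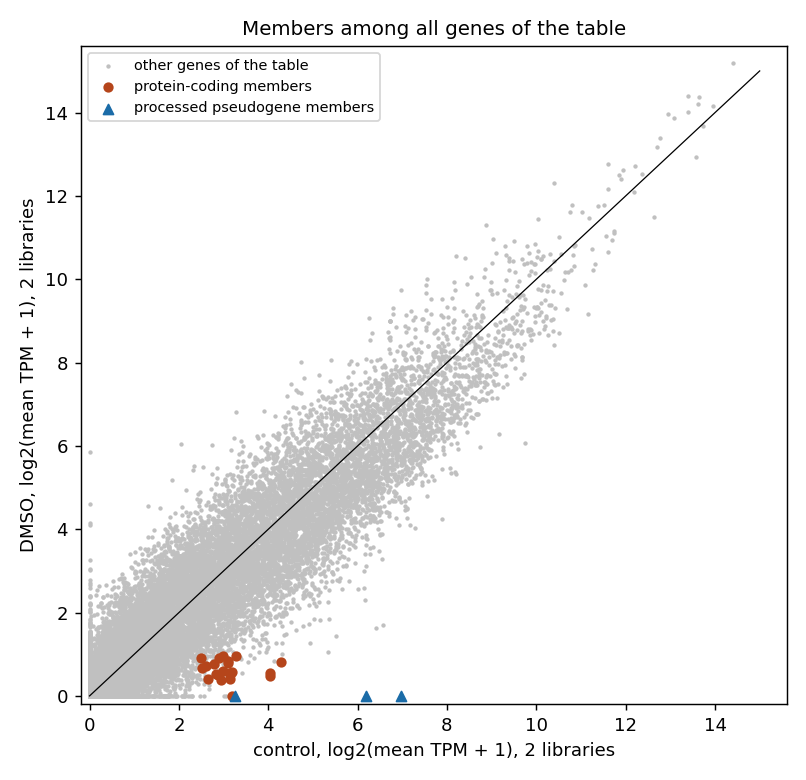
Mean abundance in the 2 DMSO libraries against that in the 2 control libraries, as log2(mean TPM + 1), for all genes of the table, with the line of equality. Protein-coding genes of the group (orange circles) had control values from 4.09 to 20.5 TPM, and 2 of the 3 processed pseudogenes (blue triangles) lie far to the right of them on the horizontal axis.

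Genes of RNA handling and ribosomes made up 5 of the protein-coding genes. These role groups were made from textbook knowledge once the genes were known. Together they summed to 45.3 and 45.2 TPM in control and 2.76 and 2.80 TPM in DMSO. Gemin4, a subunit of the SMN complex that loads Sm proteins onto spliceosomal RNAs, lies at chr11:76210571-76217664 on the minus strand. It was even between control replicates, at 15.2 and 15.5 TPM, and was at 0.905 TPM in DMSO replicate 1 and 0 in DMSO replicate 2. All 7094 bases of its locus lie within Glod4 on the same strand, and 89.7% of its words occur in Glod4 transcripts. Nxf2 (chrX:134944526-134964754, minus strand) is a testis-expressed relative of the main messenger RNA export receptor Nxf1. Its values were 7.15 and 10.2 TPM in control and 0.876 and 0.999 TPM in DMSO, the last being the highest DMSO value of the 25 genes. None of its words occurs in another gene of the table.

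Polr3d (chr14:70438757-70443447, minus strand) encodes a subunit of RNA polymerase III, the enzyme that makes transfer RNA and 5S ribosomal RNA. It was at 7.65 and 4.62 TPM in control, 0 in DMSO replicate 1 and 0.893 TPM in DMSO replicate 2. Sdad1 (chr5:92284010-92310479, minus strand) is needed for maturation and export of the large ribosomal subunit. Its control values were nearly equal, 6.89 and 6.91 TPM, and so were its DMSO values, 0.978 and 0.903 TPM. Mrpl23 (chr7:142532686-142540747, plus strand) encodes a protein of the large subunit of the mitochondrial ribosome. It was the only protein-coding gene of the group listed at 0 in both DMSO libraries, with 8.31 and 7.92 TPM in control. Its processed pseudogene Mrpl23-ps1, which holds 10.3% of its words, was at 14.7 and 7.47 TPM in control, 4.77 TPM in DMSO replicate 1 and 0 in DMSO replicate 2.

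Besides Nxf2, 4 genes are known from the germ line, and these 4 summed to 21.6 and 31.1 TPM in control and 1.99 and 2.86 TPM in DMSO. Syce3 (chr15:89390174-89410503, minus strand) is a central element protein of the synaptonemal complex, which joins homologous chromosomes in meiosis. It was at 6.51 and 9.08 TPM in control and 0.286 and 0.544 TPM in DMSO. Klhl10 (chr11:100441917-100457022, plus strand) is a spermatid adaptor of the Cul3 ubiquitin ligase. Values for Klhl10 were 6.46 and 8.67 TPM in control and 0.505 and 0.935 TPM in DMSO. Nkapl (chr13:21467047-21468509, minus strand) is a germ cell retrogene of the X-linked gene Nkap and has a single exon. With 4.09 and 5.20 TPM in control and 0.979 and 0.759 TPM in DMSO, it had the smallest difference of the group. Cox7b2 (chr5:71442824-71548205, minus strand) is a testis form of a cytochrome c oxidase subunit. It was at 4.55 and 8.14 TPM in control and 0.218 and 0.625 TPM in DMSO.

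Of the cytoskeletal genes, 3 were in the group, with sums of 32.6 and 45.4 TPM in control and 1.50 and 2.02 TPM in DMSO. Krt28 (chr11:99364872-99374903, minus strand) is a type I keratin known from the inner root sheath of the hair follicle. It had 16.6 and 20.2 TPM in control and 0.756 and 0.732 TPM in DMSO. The other type I inner root sheath keratins read, Krt25, Krt26 and Krt27, did not share this level and were too low for the test. Krt25, the highest of them, was at 0.665 and 0.321 TPM in control and 1.40 and 0.373 TPM in DMSO. Rflnb (chr11:76019194-76027782, minus strand) encodes a refilin, a filamin-binding protein that organizes actin. Its control values differed by replicate, 10.5 and 20.5 TPM, and both lay far above its DMSO values of 0.243 and 0.530 TPM. Map10 (chr8:125669818-125673359, plus strand) is a microtubule-associated protein gene with 1 exon. Its values were 5.43 and 4.70 TPM in control and 0.506 and 0.762 TPM in DMSO.

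Genes of membranes and signalling were the largest of these role groups, with 7 members and sums of 39.9 and 47.8 TPM in control and 2.64 and 4.55 TPM in DMSO. Mogs (chr6:83115496-83118898, plus strand) is glucosidase I of the endoplasmic reticulum, which trims the first glucose from N-glycans. It was at 5.29 and 8.59 TPM in control and 0.196 and 0.823 TPM in DMSO. Cybc1 (chr11:121222588-121229322, minus strand) is a chaperone of the cytochrome b subunits of the phagocyte NADPH oxidase. It was at 6.37 and 9.43 TPM in control and 0.244 and 0.398 TPM in DMSO. Its end overlaps Hexdc by 68 bases on the opposite strand, and Hexdc was very abundant, at 1228 and 534 TPM in control and 2262 and 1281 TPM in DMSO. Chrna10 (chr7:102111266-102116828, minus strand) encodes a nicotinic receptor subunit known from cochlear hair cells. Its levels were 5.84 and 7.48 TPM in control and 0.0832 and 0.505 TPM in DMSO. Art5 (chr7:102096879-102109489, minus strand), an ecto-ADP-ribosyltransferase gene, lies 1776 bases from Chrna10. Art5 had 4.21 and 6.27 TPM in control, 0 in DMSO replicate 1 and 0.646 TPM in DMSO replicate 2. Both genes overlap Art1 on the opposite strand, which was under 1 TPM in all 4 libraries.

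Dlg3 (chrX:100767722-100818410, plus strand) encodes SAP102, a scaffold protein of the synapse. It was at 7.88 and 5.01 TPM in control and 0.814 and 0.921 TPM in DMSO. Dusp26 (chr8:31089471-31097047, plus strand) is a dual-specificity phosphatase gene. The values were 5.05 and 6.83 TPM in control and 0.624 and 0.7502 TPM in DMSO. Ccm2 (chr11:6546887-6596744, plus strand) encodes a scaffold protein whose loss causes cerebral cavernous malformations. It was at 5.24 and 4.21 TPM in control and 0.677 and 0.501 TPM in DMSO.

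The remaining 3 protein-coding genes fit none of these roles. Atg16l2 (chr7:101263034-101302251, minus strand) is a relative of the autophagy gene Atg16l1. Its control replicates differed more than those of most genes, 4.45 and 11.2 TPM, and its DMSO values were 0.373 and 0.537 TPM. Serf1 (chr13:100108012-100114571, plus strand) is a small gene beside Smn1, the spinal muscular atrophy gene. Serf1 was at 5.41 and 9.73 TPM in control and 0.617 and 0.943 TPM in DMSO. B230307C23Rik (chr16:97997315-98031801, plus strand) is annotated as protein-coding. Its control values, 8.05 and 8.09 TPM, and its DMSO values, 0.522 and 0.470 TPM, were close between replicates.

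Across all 25 genes, the replicates differed in 1 direction more often than the other. Control replicate 2 was above control replicate 1 in 17 genes, and DMSO replicate 2 was above DMSO replicate 1 in 16. Over all genes tested the same shares were 38.0% and 45.9%. The genes nearest to the thresholds had values close to those just left out. On the control side, Nkapl, Ccm2 and Art5 were the lowest genes taken. Just under 4 TPM stood Rnf138rt1 (3.99 and 6.80 TPM in control, 0.329 and 0.0796 TPM in DMSO). Fcho2 (3.94 and 4.98 TPM in control, 0 and 0.813 TPM in DMSO) and Faap24 (10.6 and 3.94 TPM in control, 0 in both DMSO libraries) followed. On the DMSO side, Nxf2, Nkapl and Sdad1 were the highest genes taken. Mettl26 (4.82 and 4.91 TPM in control, 0.397 and 1.02 TPM in DMSO) was just above 1 TPM in DMSO replicate 2. Pdf (5.29 and 4.72 TPM in control, 1.02 and 0.769 TPM in DMSO) and Gzmm (4.21 and 4.19 TPM in control, 0.838 and 1.04 TPM in DMSO) were the next.

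To place the group among all genes, limma, a linear model that shares the variance between genes, was run on the 12038 genes whose mean reached 1 TPM. An adjusted p under 0.05 was reached by 2470 genes (20.5%), 1697 lower (14.1%) and 773 higher (6.42%) in DMSO. After quantile normalization the split was 1121 lower and 1076 higher. All 25 genes passed the abundance filter through their control values and all were called lower, which the choice of genes fixes and from which nothing is read. Leaving out control replicate 1, control replicate 2 or DMSO replicate 1 left 3, 3 and 15 genes called, whereas 2091 were called without DMSO replicate 2. Over these 12038 genes the median log2 fold change was -0.09.

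In the genome the 25 genes fell on 11 chromosomes. Chromosome 11 held 7 of them (28% of the group, against 8.74% of the annotated genes at 4 TPM or more in both controls), namely Gm12112, Krt28, Rflnb, Gemin4, Cybc1, Klhl10 and Ccm2. Chromosome 7 held 4 (16% against 6.39%), which were Mrpl23, Atg16l2, Chrna10 and Art5. Few of these lay close together. Rflnb and Gemin4 were 183 kb apart, Atg16l2 and Art5 795 kb, and Krt28 and Klhl10 1067 kb. The protein-coding genes had a median of 2873 exonic bases and 5 exons in the longest transcript, against 4210 bases and 9 exons for protein-coding genes at 4 TPM or more in both controls. Another gene of the table overlapped 8 of the 25 genes.

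Shared sequence bears on how far each level belongs to its own gene. Words were compared only among genes of the table. Of the 25 genes, 12 had no word of 31 bases in another of these, 6 had up to 5% and 2 between 5% and 10%. The remaining 5 were Gm12112, Gm10052, Gemin4, Chrna10 and Mrpl23. More than 90% of the words were shared in 3 genes (12.0%), against 3.30% of the genes at 4 TPM or more in both controls, while the median share of words was lower in the group, 0.195% against 1.50%. When TPM was summed over genes linked by at least 50% of the words of one of them, 4 of the 25 genes belonged to a linked set and none of those sets met the rule. Gemin4 with its linked genes was at 23.3 and 20.8 TPM in control and 15.2 and 10.5 TPM in DMSO. The set of Gm12112 was at 201 and 161 TPM in control and 35.1 and 41.7 TPM in DMSO. For Gm10052 the set of 5 genes was at 605 and 360 TPM in control and 489 and 320 TPM in DMSO, values that overlap between groups. Mrpl23 and Mrpl23-ps1 together were at 22.99 and 15.4 TPM in control, 4.77 TPM in DMSO replicate 1 and 0 in DMSO replicate 2. The other 21 genes were not linked and met the rule as before.

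**Figure D3:**
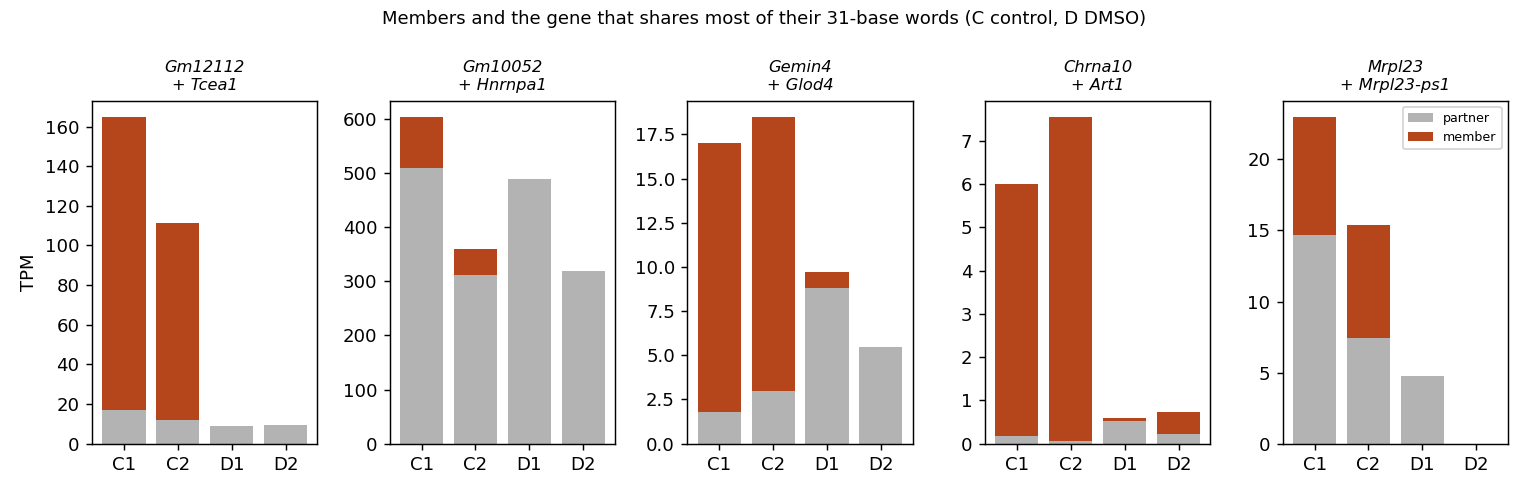
TPM in each library of 5 genes of the group (orange) stacked on the gene that shares most of their 31-base words (grey), in control replicates 1 and 2 (C1, C2) and DMSO replicates 1 and 2 (D1, D2), each panel on its own axis. Hnrnpa1 overlaps between groups, while Glod4 is higher and Tcea1 lower in both DMSO libraries than in both control libraries.

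The rule did not choose the genes that share most words with the group. There were 13 such partners, 9 of them abundant enough to test, and 1 was called (11.1%, against 20.5% of all genes). It was Nkap, the X-linked parent of Nkapl and a regulator of transcription and splicing, which shares only 5 words (0.349%) with it. Nkap was at 15.4 and 21.6 TPM in control and fell to 2.10 and 3.41 TPM in DMSO (log2 fold change -2.38 ± 0.35 SE, limma adjusted p = 0.0181). Without control replicate 1, control replicate 2 or DMSO replicate 1, 0 of the partners were called. Glod4, which contains Gemin4, went from 1.78 and 2.96 TPM in control to 8.82 and 5.47 TPM in DMSO (log2 fold change 1.26 ± 0.38 SE), and Mrpl23-ps1 had a log2 fold change of -2.26 ± 0.80 SE. Glod4, Tcea1, Hnrnpa1 and Mrpl23-ps1 are linked to a gene of the group by shared words. Their values are tied to the values that the rule used, so no p-value is given for them and nothing is read from the share called.

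Neighbouring genes that the rule did not choose were tested in the same fit, taking the nearest tested gene on each side with a start within 100 kb. For these distances the start is the lower genome coordinate of a gene, whatever its strand. There were 32 such neighbours of 22 genes, of which 7 were called lower (21.9%, against 14.1% of all genes), 0 higher and 25 neither. Their median log2 fold change was -0.40. Where the mean reached 5 TPM, 6 of 18 neighbours (33.3%) and 22.5% of all genes were lower. Of those neighbours, Piwil2, Nt5c3b, Mrm3 and Cct8l1 had both DMSO values under 5 TPM. They passed this filter only through their control values, so nothing is read from that share. Sco2, a mitochondrial copper chaperone gene beside Syce3, was at 57.5 and 64.0 TPM in control and 5.66 and 16.0 TPM in DMSO (log2 fold change -2.53 ± 0.46 SE, adjusted p = 0.0223). Mrm3, a mitochondrial ribosomal RNA methyltransferase gene, was the neighbour taken for Gemin4. It starts near the end of Glod4, the gene that contains Gemin4 and had higher values in DMSO. Mrm3 was at 16.3 and 19.5 TPM in control and 1.58 and 4.27 TPM in DMSO (-2.35 ± 0.42 SE, adjusted p = 0.0221). Piwil2, a piRNA pathway gene beside Polr3d, was at 11.7 and 12.1 TPM in control and 3.24 and 4.24 TPM in DMSO (-1.45 ± 0.31 SE, adjusted p = 0.0294). In Sco2, Mrm3 and Piwil2 both DMSO values lay below both control values and above 1 TPM.

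Bdp1, a subunit of the RNA polymerase III initiation factor TFIIIB, lies beside Serf1. It fell from 36.8 and 39.8 TPM to 19.1 and 18.4 TPM (log2 fold change -0.99 ± 0.26 SE, adjusted p = 0.0442). This call was lost without a trend, after median-ratio scaling and after quantile normalization. Also lower were Nt5c3b beside Klhl10 (-1.96, adjusted p = 0.0221) and Cct8l1 beside Gm20432 (-1.64, adjusted p = 0.0259). Zscan26 beside Nkapl, the only called neighbour under 1 TPM in both DMSO libraries, was at 3.26 and 1.99 TPM in control and 0.0547 and 0.259 TPM in DMSO (-1.63, adjusted p = 0.0320). It passed the filter of 1 TPM only through its control values and was not called with a pseudocount of 0.1. Smn1, on the other side of Serf1, was at 1.96 and 6.26 TPM in control and 0.347 and 1.53 TPM in DMSO and did not pass (adjusted p = 0.119). Other neighbours had values on the higher side, such as Klhl11 beside Klhl10 (151 and 107 TPM in control, 209 and 177 TPM in DMSO, adjusted p = 0.162). Within 20 kb, 2 of 11 neighbours were called. Leaving out control replicate 1, control replicate 2 or DMSO replicate 1 left 0 neighbours called, and leaving out DMSO replicate 2 left 5.

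**Figure D4:**
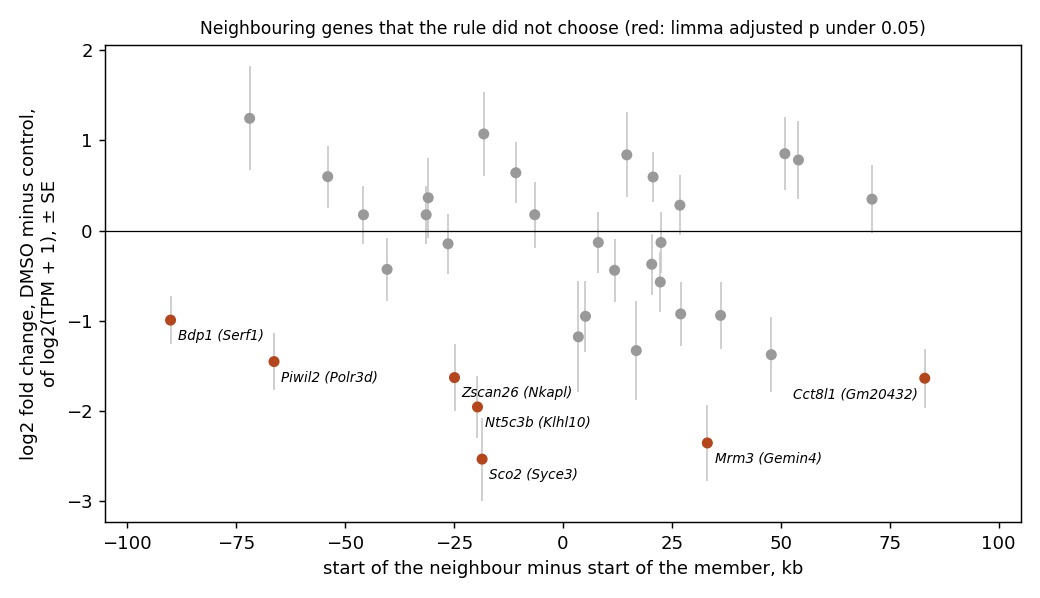
Log2 fold change of log2(TPM + 1), DMSO minus control, of the neighbouring genes, with bars of 1 SE. The horizontal axis is the distance in kb from the start of the gene of the group to the start of the neighbour. A start is the lower genome coordinate on either strand. Named neighbours (red, with the gene of the group in brackets) are the 7 with a limma adjusted p under 0.05, all below 0, while grey points lie on both sides of 0.

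Other genes of the same pathways were measured as well. Of 20 gene lists written with the design, 1 held a gene of the group, the endoplasmic reticulum glucosidases and N-glycan transfer enzymes around Mogs. Of 16 other genes tested in it, 5 were lower (31.2%, against 14.1% of all genes), 0 higher and 11 neither, with a median log2 fold change of -0.26. With a mean of at least 5 TPM, 5 of 14 (35.7%) were lower, against 22.5% of all genes. Magt1, a subunit of the oligosaccharyltransferase that attaches glycans to proteins, was at 35.2 and 28.4 TPM in control and 9.59 and 12.4 TPM in DMSO (-1.45 ± 0.30 SE, adjusted p = 0.0273). Ostc, Stt3a and Ost4 of the same enzyme also fell, by 1.35, 1.25 and 1.09 on the log2 scale, though Ost4 was not called without a trend or after quantile normalization. Other subunits did not pass and went both ways. Log2 fold changes were 0.49 for Stt3b, 0.44 for Rpn2 and 0.25 for Dad1, but -0.67 for Ddost and -0.37 for Rpn1. Uggt1, which returns glucose to misfolded glycoproteins, was just past the threshold (-1.06 ± 0.30 SE, adjusted p = 0.04995). Ganab, the catalytic subunit of glucosidase II that acts after Mogs, was at 6.35 and 6.68 TPM in control. It was at 8.04 and 8.55 TPM in DMSO, on the higher side, and did not pass the test (0.31 ± 0.30 SE, adjusted p = 0.464). Prkcsh of the same list was on the lower side and did not pass either (-0.88 ± 0.35 SE, adjusted p = 0.110). Without control replicate 1, control replicate 2 or DMSO replicate 1, 0 genes of this list were called, and 2 without DMSO replicate 2.

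A further 16 lists of complexes and families were written once the genes of the group were known, so they are a description. Of 74 genes tested in them, 19 were lower (25.7%, against 14.1% of all genes), 1 higher (1.35%, against 6.42%) and 54 neither, with a median log2 fold change of -0.66. With a mean of at least 5 TPM, 24 of 55 (43.6%) were lower and 3 (5.45%) higher, against 22.5% and 10.3% of all genes. Some of those called lower, such as Nkap and Cox7a1, reached that mean only through their control values. Around Sdad1, 6 of 10 genes of late 60S ribosome maturation and export were lower, namely Nmd3, Xpo1, Lsg1, Gtpbp4, Mrto4 and Wdr12. Nmd3, the export adaptor of the large subunit, was at 495 and 471 TPM in control and 136 and 172 TPM in DMSO (-1.65 ± 0.25 SE, adjusted p = 0.0188). Around Polr3d, 5 of 12 RNA polymerase III subunits were lower, namely Polr3a, Polr3b, Polr3c, Polr3e and the shared subunit Polr1d. Polr3a, the largest subunit, was at 49.8 and 46.9 TPM in control and 16.6 and 17.7 TPM in DMSO (-1.45 ± 0.26 SE, adjusted p = 0.0224). None of these 5 subunits was near the DMSO level of Polr3d. In the SMN complex around Gemin4, Gemin2 and Gemin5 were lower among 8 genes. Gemin5, which binds small nuclear RNA, was at 31.04 and 36.3 TPM in control and 5.37 and 12.2 TPM in DMSO (-1.91 ± 0.40 SE, adjusted p = 0.0285).

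Smaller families were mixed. Their counts are of few genes each, against 14.1% of all genes called lower and 6.42% called higher, and nothing is read from them. Around Atg16l2, Atg3 and Atg7 were lower among 6 conjugation genes, Atg3 from 107 and 123 TPM to 17.5 and 19.3 TPM (-2.58 ± 0.26 SE, adjusted p = 0.0181). Its paralog Atg16l1 was at 29.1 and 34.5 TPM in control and 9.27 and 20.6 TPM in DMSO. It was not called, except under a replicate block and without DMSO replicate 2. Beside Cox7b2, Cox7c and Cox7a1 were lower among 5 subunits, and its ubiquitous form Cox7b was at 195 and 121 TPM in control and 287 and 319 TPM in DMSO. Cox7b was not called, but it was called higher with a filter of 5 TPM, after quantile normalization and under a replicate block. Pdcd10, a partner of Ccm2, fell from 102 and 68.6 TPM to 33.5 and 34.7 TPM (-1.27 ± 0.29 SE, adjusted p = 0.0330), and it was the only one of 6 CCM complex genes called. Dlg1, a relative of Dlg3, rose from 39.7 and 26.2 TPM to 73.2 and 74.6 TPM (1.17 ± 0.30 SE, adjusted p = 0.0403), a call that was lost without a trend. None of 5 synaptonemal complex genes tested around Syce3 was called, and Syce2 was at 337 and 184 TPM in control and 665 and 428 TPM in DMSO. Nor was a gene called in the export factors around Nxf2 (4 tested), the NADPH oxidase around Cybc1 (4), the Cul3 ligase around Klhl10 (5), the filamins around Rflnb (2), the nicotinic receptors around Chrna10 (2) or the ADP-ribosyltransferases around Art5 (1). Of the 38 called genes named in the partner, neighbour, list and marker results, 0 were still called without control replicate 1, control replicate 2 or DMSO replicate 1, and 24 without DMSO replicate 2. Another scaling also ended some of these calls, 31 being left after median-ratio scaling and 28 after quantile normalization, and Bdp1, Polr3e, Gemin2, Atg7, Uggt1, Mrto4 and Epcam were lost under both. After quantile normalization Ost4, Lsg1 and Pdcd10 were lost as well.

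Promoter windows of RefSeq (GRCm38.p6, 250 bases before to 50 after the start) were found for 20 of the 25 genes. On both strands 7 motifs were searched as letters, and a match is only a description. The GC box GGGCGG was in 12 of 20 (60%, against 68.6% of genes at 4 TPM or more in both controls and 38.2% of all genes). The ETS core TTCCGG was in 8 (40%, against 36.2% and 16.7%) and CCAAT in 8 (40%, against 44.6% and 41.1%). The TATA box TATAAA was in 5 (25%, against 8.80% and 15.7%), namely Cox7b2, Krt28, Map10, Sdad1 and Syce3. The cyclic AMP element TGACGTCA was in 1 (5%, against 3.91% and 2.03%) and the NRF1 core motif in 0 (against 2.43% and 1.07%). The E-box CACGTG was in 4 (20%, against 12.2% and 8.09%), namely Art5, Map10, Nxf2 and Sdad1. The median number of CpG sites in a window was 17 in the group, 21 in the genes at 4 TPM or more in both controls and 7 in all windows.

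The 250 bases before the start are shown for the 3 genes with the E-box there, with the motif in capitals, because Nxf2 carries 5 copies in its window and the others 1. The windows are chrX:134964755-134965004 (minus strand) for Nxf2, chr8:125669568-125669817 (plus strand) for Map10 and chr7:102100230-102100479 (minus strand) for Art5, printed 5′ to 3′ on the strand of the gene. The start is that of RefSeq, and for Art5 it lies inside the locus that GENCODE gives, downstream of the GENCODE start.
Nxf2: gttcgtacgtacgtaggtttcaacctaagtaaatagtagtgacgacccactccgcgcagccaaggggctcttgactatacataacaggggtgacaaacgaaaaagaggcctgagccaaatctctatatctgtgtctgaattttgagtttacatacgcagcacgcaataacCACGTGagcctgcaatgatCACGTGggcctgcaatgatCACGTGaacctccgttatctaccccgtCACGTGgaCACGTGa
Map10: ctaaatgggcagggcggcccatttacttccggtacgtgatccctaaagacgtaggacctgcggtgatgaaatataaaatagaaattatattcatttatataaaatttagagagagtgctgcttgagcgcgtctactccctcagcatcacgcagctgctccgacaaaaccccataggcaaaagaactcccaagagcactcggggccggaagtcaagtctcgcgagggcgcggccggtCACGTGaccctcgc
Art5: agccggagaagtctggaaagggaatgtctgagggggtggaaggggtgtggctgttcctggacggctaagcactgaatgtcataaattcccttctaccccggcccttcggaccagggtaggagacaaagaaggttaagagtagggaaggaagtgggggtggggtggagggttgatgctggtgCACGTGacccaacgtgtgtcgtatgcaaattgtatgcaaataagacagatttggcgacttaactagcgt

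Markers of the labelled stage and of other cells were read beside these values. The 12 markers of the 2-cell embryo summed to 1340 and 972 TPM in control and 3980 and 2721 TPM in DMSO, with 5 called higher (against 6.42% of all genes) and Gm5662 the most abundant in DMSO. Oocyte and maternal markers summed to 1233 and 792 TPM in control and 3082 and 2349 TPM in DMSO. Oosp1 alone gave 877 and 576 TPM in control and 2086 and 1763 TPM in DMSO. Of 11 tested, 2 were called higher (against 6.42% of all genes), and the rest went both ways without a call. Log2 fold changes of these were above 0 for Gdf9 (0.95), Zp1 (0.96), Zp2 (0.85), Ooep (1.17), H1foo (0.94) and Npm2 (0.83). They were below 0 for Padi6 (-0.80), Mos (-0.54) and Zp3 (-0.42). Markers of the 4-cell to blastocyst stages summed to 409 and 267 TPM in control and 321 and 207 TPM in DMSO, with Klf17 the most abundant. Of 9 tested, 1 was called, Tfap2c, which was lower (against 14.1% of all genes). The others tested were not called and went both ways. Log2 fold changes were above 0 for Nanog (0.71), Gata3 (0.94), Krt18 (0.64) and Dppa1 (0.50). They were below 0 for Gata6 (-1.04), Krt8 (-0.62), Klf17 (-0.20) and Sox2 (-0.07), and that of Klf17 turned after quantile normalization. The calls of Gm5662, Oosp1 and Tfap2c were also lost without control replicate 1, control replicate 2 or DMSO replicate 1. The sums of the 2-cell and oocyte markers were thus higher in DMSO where the genes of the group were near 0, and their part in the result was not tested.

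The 4 germ line genes were also set beside sperm markers. Those 10 markers summed to 41.9 and 17.2 TPM in control and 93.5 and 43.5 TPM in DMSO, mostly from Odf2, and the defining genes Tnp2, Smcp and Acr were listed at 0 in all 4 libraries. Of the 10 markers, 3 were tested and 2 of these were called higher, against 6.42% of all genes tested. Prm2 was at 2.56 and 2.86 TPM in control and 11.04 and 6.79 TPM in DMSO, and it was called higher. Tnp1, at 0.281 and 0 TPM in control and 2.08 and 1.69 TPM in DMSO, was called higher too, but it passed the filter of 1 TPM only through its DMSO values and was not called with a pseudocount of 0.1. Cumulus and granulosa markers summed to 14.9 and 8.78 TPM in control and 32.1 and 22.7 TPM in DMSO, mostly from Nr5a2, with Amh and Inhba listed at 0 throughout. Oviduct epithelium markers summed to 135 and 121 TPM in control and 73.9 and 100 TPM in DMSO. Ovgp1, the oviduct glycoprotein gene, was on the higher side in DMSO, at 17.9 and 19.5 TPM in control and 26.2 and 33.2 TPM in DMSO, and was not called. Of those 8 markers, 5 were tested and 1 was called lower (against 14.1% of all genes). This was Epcam, the most abundant, at 104 and 92.6 TPM in control and 36.1 and 55.9 TPM in DMSO. Its call was lost under both other scalings, and Sprr2f was listed at 0 throughout. The part of other cells in these values was not tested.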

How the data were processed

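RNA of 2 control and 2 DMSO libraries was measured, grouped by the sample labels. The authors matched reads to the Ensembl transcriptome of GRCm38 with kallisto, combined transcripts per gene with tximport and deposited TPM values for 30049 genes. STAR, SAMtools, bedtools and mm10 are also named in the submitters' processing notes, without versions. The labels name both single-end and paired-end reads of 50 bases. No count test was run, since TPM values are not counts, and no depth or counting error can be had from them.

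The rule on TPM was applied to the deposited table as it stands. GENCODE M21 (GRCm38) named 29668 of the genes and left 381 unnamed. It also gave biotypes, coordinates and transcripts. The study's methods name another Ensembl release, so its transcripts can differ from these. Words of 31 bases were counted on either strand over the GENCODE M21 transcripts of the genes in the table. Transcripts of genes outside the table were not searched. Promoter sequences are from RefSeq (GRCm38.p6).

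The model was fitted to log2(TPM + 1) of genes whose mean reached 1 TPM, by lmFit and eBayes (with a trend, group as the only term) of limma 3.58.1 and R 4.3.3, with Benjamini-Hochberg adjustment at 0.05 over all 12038 genes. The step was tested on simulated data. With 2 libraries per group, fold changes of low genes are understated by the pseudocount of 1. The remaining work used Python 3.11.15 with pandas 2.3.3, numpy 2.4.6 and matplotlib 3.10.9.

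The genes of the group, the rule, the gene lists and the tests were chosen with earlier results of these data known. The genes named are all those of the group, which include the 15 protein-coding genes and the pseudogenes of highest control level, the 3 genes on each side of each threshold, the gene sharing most words with each, and the neighbours and list genes called, up to 10 in each set. Others named were chosen after their values were seen. Of those 13 word partners, the ones not described in the text are Nktr, Krit1, Gm20939 and H2-DMb2, and of these the 3 tested were not called. The role groups and 16 of the lists were written once the genes were known. Alternatives were other thresholds, a pseudocount of 0.1, no filter or a mean of at least 5 TPM, no trend, quantile normalization or median-ratio scaling, a replicate block, sums over linked genes, other limits for partners and neighbours, and leaving out each library.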

Additional observations from a re-analysis of the deposited data

How the results depend on the processing

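The number of genes that met the rule was 25 and moved with its thresholds. It became 6 with at least 8 TPM in both control libraries, 148 with at least 2 TPM, 5 with under 0.5 TPM in both DMSO libraries and 130 with under 2 TPM. It was 23 after median-ratio scaling and 25 after quantile normalization, with 22 of the 25 genes among them each time, and 21 when TPM was summed over linked genes. Leaving out each library gave 64 to 108 genes. All 25 were among them, which is fixed in advance because leaving out a library only drops a condition of the rule. Of all genes tested, 2470 were called, between 2026 and 2450 with another pseudocount, filter of 5 TPM, trend or scaling. Without a filter on low values 0 were called, though 5368 of 22257 had an unadjusted p under 0.05, and then 0 word partners, neighbours and genes of the Mogs list were called as well (2, 9 and 5 at an unadjusted p under 0.05). Leaving out a library gave 3 to 2091 calls over all genes, 0 to 1 among the word partners, 0 to 5 among the neighbours and 0 to 2 in the Mogs list; a group then has 1 library, which is assumed to vary like the other group. Of the 3 partners holding at least 50% of the words 0 were called (1 at an unadjusted p under 0.05). Nothing is read from this, since their words are those of the group. Of the neighbours within 20 kb by lower genome coordinate, 2 were called. The Mogs list had 3 calls without a trend and 3 after quantile normalization, and the 16 lists added after seeing the data had 20. Of the 38 called genes named, 31 were still called with a pseudocount of 0.1, 36 with a filter of 5 TPM, 30 without a trend, 31 after median-ratio scaling and 28 after quantile normalization. Bdp1, Uggt1, Polr3e, Gemin2, Atg7 and Epcam lost their calls under each of the last 3, Mrto4 under both scalings, Ost4 without a trend and after quantile normalization, Lsg1 and Pdcd10 after quantile normalization, and Dlg1 without a trend. Of genes not called, Cox7b and Nr5a2 were called with the filter of 5 TPM and after quantile normalization, Nr5a2 also after median-ratio scaling, and Atg16l1 without DMSO replicate 2. Directions were followed through these alternatives for 57 of the tested genes named, and they held except for 4 that were not called. The log2 fold change of Hnrnpa1 was 0.036 after median-ratio scaling and 0.20 after quantile normalization, and between -0.37 and 0.34 with a library left out. For Klf17 it was 0.058 after quantile normalization and between -0.65 and 0.25 with a library left out, for Kmt2c between -0.11 and 0.70 and for Dad1 between -0.028 and 0.53. The cause of these changes was not tested.

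A replicate block gave 5132 called genes, with 4 word partners (2 lower, 2 higher, from which nothing is read), 14 neighbours (10 lower, 4 higher) and 7 genes of the Mogs list (6 lower, 1 higher). All 38 called genes named kept their calls under the block, and Smn1, Klhl11, Atg16l1, Syce2, Cox7b, Hexdc, Odf2 and Nr5a2 gained one. Same-numbered libraries deviated together (r = 0.35 across 12038 genes, which are not independent replicates), but with 2 numbers only, no source saying what they share, they were not taken to pair the samples.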
